A study of Mus musculus with 12 samples.

Results

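Switching the VP16-CREB transgene off again was followed in 1 hippocampal array, labelled as reversal for 2 weeks, and read against late induction and against hippocampus that had never been induced. The comparison used 7 of the 12 arrays of the series, chosen by their titles. The late induced group held VC (VP16-CREB) mice 2 weeks off doxycycline (dox; arrays 1 and 2) and 5 weeks off dox (1 array). The never-induced group held wild-type mice (arrays 1 and 2) and VC mice kept on dox (1 array). The reversed array held VC mice that had the transgene on for 3 weeks and were then put back on dox for 2 weeks. All 7 samples were polyA RNA of whole hippocampus, each pooled from 6 to 10 mice of the same genotype and time, on an Affymetrix MG-U74Av2 array. The title of the reversed array names VC mice, while its description names wild type, and the title was followed here. The reversed array has no replicate. Its errors come from the spread among the other arrays. That spread also holds differences between 2 and 5 weeks off dox and between wild type and VC on dox. Genes that differ between 2 and 5 weeks thus have wider errors, and a difference of theirs passes less easily. The p-values reflect how pooled samples vary within these mixed groups, which is not how single mice vary. The labels do not name the promoter or cell type that drives the transgene, or how many founder lines were used.

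CREB is a transcription factor that binds the cAMP response element (CRE) in the promoters of many genes that neurons switch on with activity. VP16-CREB joins CREB to a viral activation domain, so that it drives these genes without the phosphorylation that CREB itself needs. Dox holds the transgene silent, and withdrawing it turns the transgene on, so putting mice back on dox asks which transcripts follow the transgene down and which outlast it. Microglia, the resident macrophages of the brain, and astrocytes raise antigen presentation, complement and lysosomal genes when tissue is disturbed.

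Each array was rescaled to one trimmed mean, values under the floor of 6.04 on the log2 scale were set to it, and all levels are log2 of this scaled intensity. Of 12422 probe sets, 6655 lay above the median of their own array on at least 2 arrays and were tested with limma. The reversed array stood on average nearer the never-induced arrays than the late ones, with ranges that overlap. Its mean absolute log2 difference over tested probe sets was 0.230 to 0.297 to the never-induced arrays (mean 0.270). To the late arrays it was 0.285 to 0.355 (mean 0.324). It was at most 0.263 among never-induced and 0.349 among late arrays. Late arrays stood on average 0.284 from the never-induced ones and 0.301 from each other, so no return is read from these distances. The Gapdh 3' to 5' control ratio, a gauge of RNA quality, was 1.05 on the reversed array and 1.15 to 1.36 on the others. The same ratio of the transferrin receptor control was 4.91 on the reversed array and 1.17 to 2.57 on the others, so the controls did not point one way, and their part in the results was not tested. The mean level of 8 choroid plexus genes, a gauge of dissection, was 9.24 on the reversed array, below the 9.38 to 10.24 of the 6 other arrays.

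Creb1, the gene that encodes CREB and thus the check of the labels, was between the groups after reversal. Its probe set 102672_g_at read 6.04 and 6.33 in wild type, 6.04 in VC on dox, 9.14 and 9.63 at 2 weeks, 9.15 at 5 weeks and 7.10 on the reversed array. The reversed value thus lay above all 3 never-induced arrays and below all 3 late ones. It was 4.60-fold lower than the late mean (log2 difference -2.20 ± 0.25 SE, adjusted p = 0.0214, limma). Against the never-induced mean it was 0.97 ± 0.25 SE higher, which did not pass (adjusted p = 0.699). The other tested probe set, 102671_at, read 6.36 to 7.66 never induced, 8.47 to 9.15 late and 7.68 reversed, and its difference from late did not pass (-1.23, adjusted p = 0.577). One more Creb1 probe set lay under the filter. No source used here says if these probe sets detect transgene RNA, endogenous Creb1 RNA or both. The call on 102672_g_at was lost without either 2-week array (highest adjusted p = 0.0585).

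Against the late arrays, 13 probe sets fell on the reversed array and 0 rose (0.195% and 0% of those tested). At an unadjusted p under 0.05 there were 566 in either direction. Late against never induced, 25 rose and 0 fell (0.376%; 432 at the unadjusted level). Against the never-induced arrays 1 probe set, of Yif1a, fell after reversal and 0 rose (0.0150%; 325 at the unadjusted level). The median difference over all tested probe sets was 0.03 for reversed minus late, -0.02 for late minus never and 0.02 for reversed minus never. These comparisons share arrays, so their values are given side by side only. The 13 falls numbered 8 without the VC on dox array (7 of them lower), 5 without the first 2-week array, 2 without the second and 8 without the 5-week array. The 25 late rises numbered 5 without wild type 1, 6 without wild type 2, 4 without VC on dox and 4 without the second 2-week array. The single fall against never induced became 3 without wild type 1 and 0 without wild type 2, VC on dox, the first 2-week array or the 5-week array.

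Of the 13, 8 were also called higher late than never induced: those of Pdyn, Rnh1, H2-Ab1, Prp2, Creb1, Slc32a1, Npy and an unnamed probe set, 98472_at. The last carries 2 symbols, so it was left unnamed and entered no gene list. The other 5, of Yif1a, Nupr1, Psapl1, Os9 and Clip3, had no called late difference, though all 3 late arrays of Clip3 lay above all 3 never-induced ones (0.55, adjusted p = 0.579, limma). On the reversed array 9 of the 13 lay below all 3 never-induced arrays, against 27.3% of all tested probe sets, and 2 lay above all 3 (31.0% of all tested), those of Creb1 and 98472_at. Nothing is read from these shares, since the 13 were chosen for low reversed values.

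**Figure D1:**
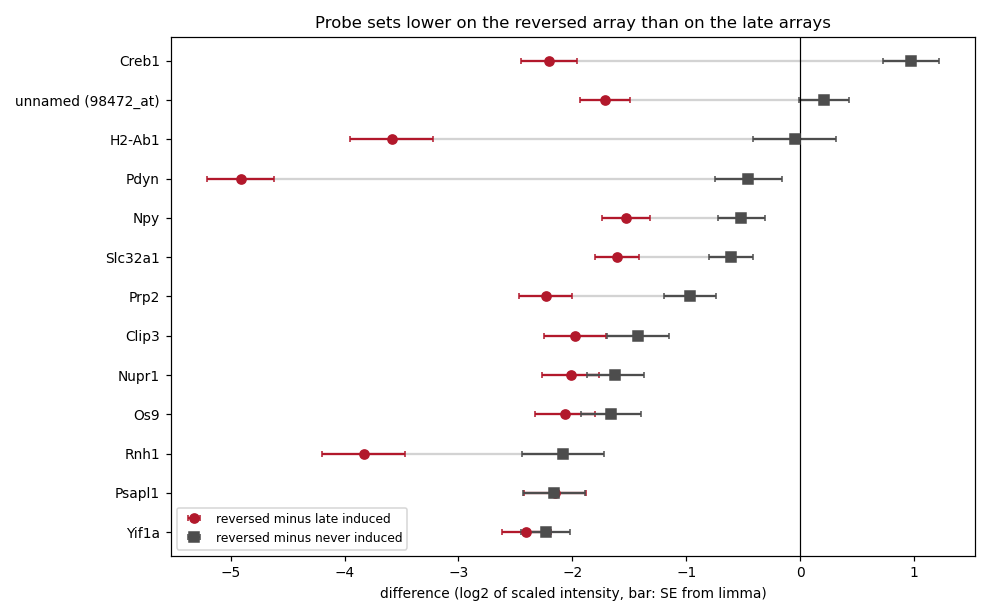
Difference of the reversed array from the late mean (circles) and from the never-induced mean (squares) for the 13 probe sets called lower than late, on a log2 scale, with the standard error from limma as bars. Creb1 kept 0.97 above never induced, H2-Ab1 stood at -0.05, and Yif1a lay about as far below never induced (-2.23) as below late (-2.40).

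The largest fall was in the neuropeptide gene Pdyn, and the 2 smallest of the 13 were in Slc32a1 and Npy, genes of inhibitory neurons. Pdyn, the prodynorphin gene of dentate granule cells, whose product is cut into opioid peptides, read on probe set 99840_at 6.04 and 6.65 in wild type, 6.79 in VC on dox, 10.89 and 11.13 at 2 weeks, 10.84 at 5 weeks and 6.04 on the reversed array. The reversed value was at the floor, no higher than any never-induced array, and the late arrays lay far above both. The fall from late (10.95 ± 0.15 SD, n = 3) was at least 30.1-fold (-4.91 ± 0.29 SE, adjusted p = 0.00108, limma). This call held in all 20 alternative settings that gave it a value, with differences from -6.09 to -3.93. The second Pdyn probe set, 161987_at, read 9.44 to 9.56 never induced, 10.52 to 10.87 late and 9.45 reversed. That difference of -1.24 just missed the threshold (adjusted p = 0.0723).

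RefSeq lists 2 starts for Pdyn on build GRCm38.p6, and the 200 bases before each are shown because this gene had the largest fall. The first stretch is at chr2:129699939-129700138, minus strand and the second at chr2:129698659-129698858, minus strand. Neither holds TGACGTCA, the full CRE, or TGACG, its core part, on either strand.
Pdyn, first start: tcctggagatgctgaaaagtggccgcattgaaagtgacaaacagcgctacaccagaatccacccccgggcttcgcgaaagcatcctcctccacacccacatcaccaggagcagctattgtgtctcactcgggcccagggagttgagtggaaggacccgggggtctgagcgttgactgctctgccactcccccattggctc
Pdyn, second start: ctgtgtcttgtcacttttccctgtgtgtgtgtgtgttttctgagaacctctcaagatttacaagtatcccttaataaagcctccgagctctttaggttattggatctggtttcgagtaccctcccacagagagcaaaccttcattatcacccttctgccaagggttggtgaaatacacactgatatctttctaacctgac

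Slc32a1, the vesicular transporter that loads GABA into synaptic vesicles, read 12.05 and 12.42 in wild type, 12.20 in VC on dox, 13.24 and 13.25 at 2 weeks, 13.17 at 5 weeks and 11.62 reversed. The 1-week arrays, which were not part of this comparison, read 11.65 and 12.35. The reversed value lay below every never-induced array, as did 27.3% of all tested probe sets. It was 3.04-fold below late (-1.60 ± 0.19 SE, adjusted p = 0.0308), and its -0.61 from never induced did not pass (adjusted p = 0.850). Npy, a neuropeptide of interneurons, behaved alike in its order: 11.61 and 11.93 in wild type, 11.69 in VC on dox, 12.56 and 12.82 at 2 weeks, 12.89 at 5 weeks and 11.23 reversed. Its fall of 2.89-fold from late (-1.53 ± 0.21 SE) passed narrowly (adjusted p = 0.0442) and was lost on leaving out any of the 6 other arrays (adjusted p from 0.0557 to 0.150). The Slc32a1 call was lost without VC on dox or any one late array.

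The other genes of these lists stayed closer to the bulk of the arrays. Of 12 interneuron marker genes tested, 2 fell (Npy and Slc32a1), against 0.195% of all tested probe sets. The list median was -0.11 for reversed minus late. Gad1, which makes GABA, read 13.53 never induced, 13.40 late and 13.53 reversed as means, and Pvalb, the parvalbumin of fast-spiking interneurons, 12.44, 12.63 and 12.51. Of 16 neuropeptide genes, 2 fell (Pdyn and Npy) and 7 lay below all late arrays, against 0.195% and 24.4% of all tested probe sets. The median was -0.23. Sst, the somatostatin gene, read 12.99 reversed against 13.29 to 13.45 never induced and 13.42 to 13.60 late (-0.55, adjusted p = 0.445). Cort, a close relative of somatostatin, read 9.10 reversed against means of 9.94 and 10.17 (-1.07 from late, adjusted p = 0.231). Penk, the enkephalin precursor, was near one level throughout on probe set 94516_f_at, with 11.19 to 11.56 never induced, 10.79 to 11.36 late and 11.06 reversed.

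Bdnf, Fos and Gadd45b, which neurons induce with activity, read inside or below the never-induced range after reversal, but none passed the test against late. Bdnf, a neurotrophin and a classic CREB target, read 11.30 and 11.26 in wild type, 11.40 in VC on dox, 12.17 and 11.99 at 2 weeks, 12.30 at 5 weeks and 11.20 reversed. The reversed array was the lowest of the 7, and the late arrays stood clear of the others. The difference from late was -0.95 ± 0.19 SE (adjusted p = 0.174, limma), and late against never induced also missed the threshold (0.83, adjusted p = 0.0571).

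Fos, an immediate early gene of the AP-1 family, read 9.91 and 10.38 in wild type, 10.01 in VC on dox, 11.26 and 11.49 at 2 weeks, 12.46 at 5 weeks and 10.18 reversed. It lay inside the never-induced range after reversal (-1.55 from late, adjusted p = 0.382). Gadd45b, a stress and activity gene that acts in DNA demethylation, read 9.24 to 9.64 never induced, 10.35 to 10.68 late and 9.41 reversed on probe set 161666_f_at (-1.13, adjusted p = 0.174), and its late rise had passed (1.08, adjusted p = 0.0394). Atf3, a stress-induced relative of CREB, read 9.11 and 9.09 in wild type, 8.77 in VC on dox, 10.22 and 10.35 at 2 weeks, 10.43 at 5 weeks and 9.29 reversed. That is below all late arrays (-1.04, adjusted p = 0.174) and slightly above the never-induced ones (0.30, adjusted p = 0.906).

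Across the 29 immediate early genes tested, 0 passed in reversed against late and 1, Gadd45b, in late against never induced. Of the 29, 16 lay below all 3 late arrays (24.4% of all tested probe sets did), and 4 above all never-induced arrays (31.0%). The list median was -0.28 for reversed minus late and -0.05 for reversed minus never, beside 0.02 and 0.01 over all 5179 genes tested. Ier2 read 8.53 reversed against means of 8.84 never induced and 9.57 late, Junb on 102363_r_at 10.11 against 10.55 to 10.75 and 10.70 to 11.43, and Egr1 on 98579_at 10.81 against 11.07 to 11.79 and 11.21 to 12.16. Nr4a1 read 10.63 against 10.51 to 11.01 and 10.28 to 11.58, with groups that overlap.

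To describe how far transcripts came back, probe sets were taken whose 3 late arrays all lay above all 3 never-induced arrays with a difference of means of at least 1 on the log2 scale. There were 62 such late-high probe sets (0.932% of those tested), and 3 in the opposite direction (0.0451%). With no limit on size, 396 (5.95%) had all late arrays above all never-induced ones. The reversed array had no part in choosing them. A return is called full where the reversed value was no higher than the highest never-induced array, absent where it reached at least the lowest late array, and partial in between. By this rule 23 (37.1%) returned fully, 30 partially and 9 (14.5%) not at all. The median share of the late difference left on the reversed array was 0.257, with quartiles of 0.0523 and 0.458. The arrays that chose these probe sets also set the scale of this share, so the choice can shift it and the return classes. Of the 62, 53 lay below all late arrays and 39 above all never-induced arrays, counts that the choice of probe sets with high late and low never-induced values itself favours. The share without return was 25.7% without wild type 1 and 5.19% without the first 2-week array. The reversed mice had the transgene on for 3 weeks, and no whole-hippocampus array stands at 3 weeks off dox. The level from which they returned is thus not known.

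**Figure D2:**
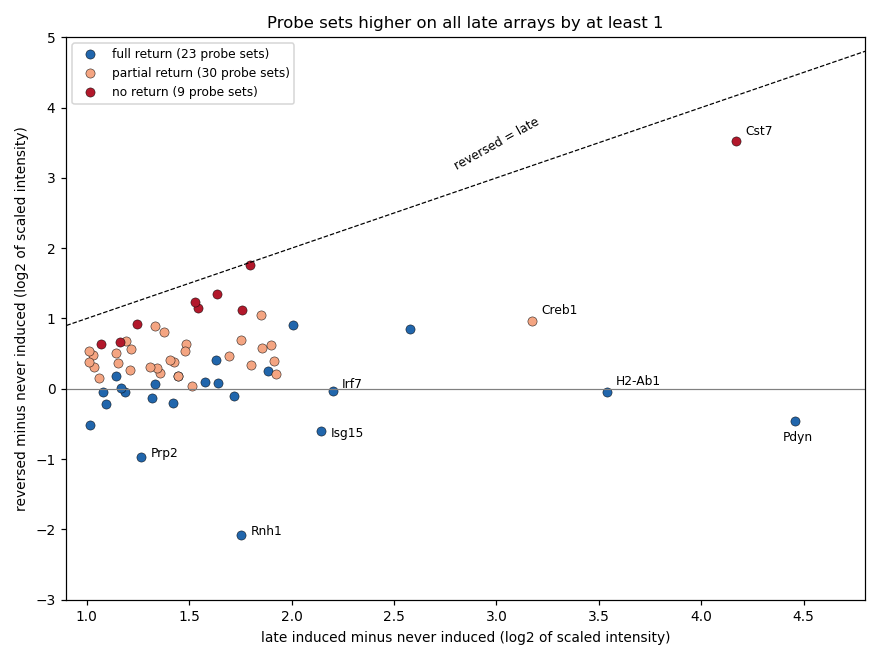
Each point is 1 of the 62 late-high probe sets. The horizontal axis gives late minus never-induced mean and the vertical axis reversed minus never-induced mean, both on the log2 scale, with colours for the return class; points on the dashed line would have kept the whole late difference. Pdyn and H2-Ab1 lie at or below 0 after late differences of 4.46 and 3.54, while Cst7 kept 3.52 of 4.17.

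Among the 25 probe sets called higher late than never induced, 24 lay below all late arrays on the reversed array and 12 above all never-induced arrays. Over all tested probe sets, 24.4% lay below all late arrays and 31.0% above all never-induced ones. The 25 were chosen for high late and low never-induced values, which itself favours both counts, so no return is read from them. The choice can also shift the return classes and the share left. Of these 25, 22 met the size rule, and 11 of them returned fully, 10 partially and 1 (Cst7) not at all. Their median share left over all 25 was 0.110, from -1.19 (Rnh1) to 0.844 (Cst7). The 3 probe sets lower on all late arrays were of H2-M10.1 on 100305_g_at (9.83 reversed, 9.52 to 10.03 never induced, 9.03 or less late), 99819_at, and Tcf25, whose low late mean rests on 1 array at 6.17.

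MHC class II genes, which present antigen and are carried in brain mostly by activated microglia and infiltrating cells, held the largest called fall after Pdyn and Rnh1. H2-Ab1, a class II beta chain, read 6.04 and 6.69 in wild type, 6.36 in VC on dox, 9.48 and 9.83 at 2 weeks, 10.40 at 5 weeks and 6.31 reversed. The reversed value lay inside the never-induced range, over 3 log2 units below the nearest late array. It was far below the late mean of 9.90 (-3.59 ± 0.36 SE, adjusted p = 0.0146, limma), a call lost without the second 2-week array (adjusted p = 0.0676). Cd74, the invariant chain that guides class II molecules, read 8.88 to 9.19 never induced, 9.56 and 9.82 at 2 weeks, 11.93 at 5 weeks and 9.30 reversed, a partial return (-1.14, adjusted p = 0.670). In whole tissue, fewer cells of a type and less RNA per cell cannot be told apart.

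Of the 6 class II genes tested, 1 fell (0.195% of all tested) and 4 lay below all late arrays (24.4% of all tested), with a median of -0.83 for reversed minus late and 0.09 for reversed minus never. H2-DMb1, which loads peptide, read 8.27 reversed against means of 8.76 never induced and 9.51 late. Chains under the filter were mixed. H2-Aa, the alpha partner of H2-Ab1, read 6.04 on all never-induced arrays, 6.59 and 6.70 at 2 weeks, 9.90 at 5 weeks and 6.17 reversed. H2-Eb1 read 6.88 to 7.10 never induced, 7.11 and 8.36 at 2 weeks, 9.55 at 5 weeks and 8.43 reversed, a level not below the 2-week arrays. These were not tested.

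MHC class I genes, which present peptides from inside the cell, had no called fall after reversal among probe sets with a single symbol. Probe sets with several symbols, such as the called 98472_at, could not enter this list. Of 12 class I and immunoproteasome genes tested, 0 passed. Of these, 7 lay below all late arrays and 9 above all never-induced ones, against 24.4% and 31.0% of all tested. The medians were 0.97 for late minus never, 0.33 for reversed minus never and -0.51 for reversed minus late. Of 8 late-high probe sets in this list, 2 returned fully, 5 partially and 1 not at all, with a median share left of 0.287. The classes do not rank the share left. H2-D1 on 97540_f_at counted as partial with a share of 0.0254, and H2-K1 on 97125_f_at as full with 0.138. H2-D1 on 101886_f_at counted as full, with 0.0101. H2-K1 on 97125_f_at read 8.03 and 8.78 in wild type, 8.54 in VC on dox, 9.98 and 10.35 at 2 weeks, 10.67 at 5 weeks and 8.71 reversed, inside the never-induced range. On 93120_f_at the same symbol read 11.23 to 11.48, 12.45 to 13.35 and 11.90, a partial return. B2m, the light chain of class I molecules, read 11.10 and 11.47 in wild type, 11.20 in VC on dox, 11.63 and 12.16 at 2 weeks, 13.46 at 5 weeks and 11.92 reversed. It stood between the 2-week arrays (share left 0.572). Tap1, a peptide transporter, read 7.58 to 8.31, 8.81 to 9.35 and 8.48. Probe set names with _f_at, _s_at or _r_at mark sequence shared with related genes or weaker probe choices, so single H2 members are uncertain.

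Interferon response genes split. Irf7, a transcription factor that amplifies the interferon response, read 6.37 and 6.78 in wild type, 6.49 in VC on dox, 8.20 and 8.71 at 2 weeks, 9.33 at 5 weeks and 6.51 reversed on probe set 104669_at. The reversed value was inside the never-induced range and well below every late array, yet its -2.23 ± 0.38 SE did not pass (adjusted p = 0.103), while the late rise had (2.20, adjusted p = 0.0232). A second Irf7 probe set, 162202_f_at, read 8.59 to 9.15 on all 7 arrays. Isg15, whose ubiquitin-like product is attached to other proteins, read 7.72 and 7.41 in wild type, 6.17 in VC on dox, 8.85 and 8.61 at 2 weeks, 10.28 at 5 weeks and 6.50 reversed (-2.74, adjusted p = 0.367).

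Irf8, a transcription factor of microglia, read 8.17 to 8.50 never induced, 8.82 and 9.30 at 2 weeks, 9.98 at 5 weeks and 8.93 reversed. It stood above the first 2-week array and counted as no return. Of 14 interferon response genes tested, 0 passed in reversed against late, 4 lay below all late arrays and 7 above all never-induced arrays, against 24.4% and 31.0% of all tested probe sets. The first share, 28.6%, is near that background. Their medians were -0.39 for reversed minus late and 0.24 for reversed minus never. Ifit3 read 8.50 against 7.92 to 8.21 and 8.21 to 10.32, and Irf9 9.45 against 7.03 to 9.26 and 8.91 to 10.02. Psmb9, an immunoproteasome subunit under the filter, was near the floor on the reversed array, at 6.15 against 7.13 and 6.59 at 2 weeks, 8.69 at 5 weeks and 6.04 to 6.09 never induced.

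Several microglia and macrophage genes read within the span of the late arrays after reversal, though below the 5-week array. Cst7, which encodes cystatin F, a cathepsin inhibitor raised in reactive microglia, read 6.04 and 6.09 in wild type, 6.24 in VC on dox, 8.94 and 10.44 at 2 weeks, 11.49 at 5 weeks and 9.64 reversed. The reversed value lay among the late arrays, above the first 2-week array, and far above every never-induced one. The late rise passed, at 18.0-fold or more (4.17 ± 0.54 SE, adjusted p = 0.0261, limma). The reversed value stood 11.5-fold or more above never induced (3.52 ± 0.76 SE), which did not pass (adjusted p = 0.511). Its late arrays had an SD of 1.28.

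Aif1, which encodes the microglial marker IBA1, read 7.81 and 7.55 in wild type, 6.79 in VC on dox, 8.70 and 8.53 at 2 weeks, 9.51 at 5 weeks and 8.62 reversed. Lyz2, a lysozyme of macrophages, read 7.77 and 7.12 in wild type, 7.46 in VC on dox, 8.02 and 8.93 at 2 weeks, 10.03 at 5 weeks and 8.60 reversed. Both lay above all never-induced arrays and within the span of the late arrays, with shares left of 0.809 and 0.744. The chemokine gene Ccl9 did likewise, at 8.43 against 7.17 to 7.42 never induced, 8.41 and 8.76 at 2 weeks and 10.05 at 5 weeks.

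Other genes of this kind read between the groups. Cd68, a lysosomal glycoprotein of macrophages, read 9.14 and 9.35 in wild type, 9.32 in VC on dox, 10.28 and 10.49 at 2 weeks, 10.69 at 5 weeks and 9.83 reversed. Cd52, a surface glycoprotein of leukocytes, read 7.91 to 8.21 never induced, 9.44 to 10.52 late and 8.66 reversed. Tyrobp, the adaptor of microglial activating receptors, read 9.07 to 10.02, 10.91 to 12.12 and 10.32. For each, the reversed array lay in the gap between the groups, and none of the differences from late passed (adjusted p from 0.400 for Cd52 to 0.607 for Tyrobp).

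Of 28 microglia and macrophage genes tested, 0 passed in reversed against late, 14 lay below all late arrays and 20 lay above all never-induced arrays, against 24.4% and 31.0% of all tested. The medians were 0.74 for late minus never, 0.39 for reversed minus never and -0.35 for reversed minus late. The mean level of the list was 9.71 to 9.74 never induced, 10.32 to 10.89 late and 10.19 reversed. Among 10 late-high probe sets of the list, 1 returned fully (Ccl3, 7.60 reversed against means of 7.19 and 8.82), 5 partially and 4 not at all, with a median share left of 0.497. Cx3cr1, the fractalkine receptor of resting microglia, read means of 9.84 never induced and 9.68 late and 9.78 reversed. Csf1r, the receptor that microglia need to survive, read 10.98 to 11.07 never induced, 11.47 to 11.87 late and 11.36 reversed on 104354_at. On 161832_r_at it was higher reversed (9.78) than on any other array (8.38 to 8.98), with no called difference.

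Complement and lysosomal genes had no called fall either. C1qa, a chain of the first complement component, read 11.03 and 11.41 in wild type, 11.55 in VC on dox, 12.41 and 12.38 at 2 weeks, 13.47 at 5 weeks and 11.70 reversed. C1qc read 11.38 to 11.66, 12.36 to 13.28 and 11.74, and C1qb on 96020_at 10.75 to 11.17, 11.25 to 12.62 and 11.24. On these probe sets the 3 chains read just above the never-induced arrays, with shares left of 0.262, 0.220 and 0.274. The other C1qb probe set, 162276_i_at, read 9.40 reversed, inside the never-induced 9.14 to 9.50, with late and never-induced means of 9.24 and 9.33. Among 7 complement genes 0 passed, and the medians were -0.28 from late and 0.27 from never induced. Ctsz and Ctss, lysosomal cysteine proteases, differed in how much was left: Ctsz read 8.91 against 8.60 to 8.90 and 9.65 to 11.11, and Ctss 12.86 against 11.98 to 12.56 and 12.88 to 13.92. Of 25 lysosomal genes 0 passed, 13 lay below all late arrays and 11 above all never-induced ones, against 24.4% and 31.0% of all tested.

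Some astrocyte probe sets also read between the groups. Gfap, the intermediate filament of reactive astrocytes, read on 94144_g_at 11.79 and 12.21 in wild type, 12.10 in VC on dox, 13.75 and 13.56 at 2 weeks, 14.35 at 5 weeks and 12.62 reversed. On 94143_at it read 9.92 to 10.21, 10.95 to 12.12 and 10.91, next to the second 2-week array. A2m, a protease inhibitor, read 7.53 to 7.84, 8.71 to 9.41 and 8.57, with a share left of 0.667. In all 3 probe sets the reversed value lay in the gap between the groups. Of 22 astrocyte genes 0 passed in reversed against late, 12 lay below all late arrays and 10 above all never-induced ones (24.4% and 31.0% of all tested), with medians of -0.29 from late and 0.06 from never induced. Serpina3n, an acute-phase protease inhibitor, read 12.14 against 11.64 to 11.95 and 12.24 to 12.73. Apoe was at 14.86, below the 14.90 to 15.24 never induced and the 15.16 to 15.55 late.

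**Figure D3:**
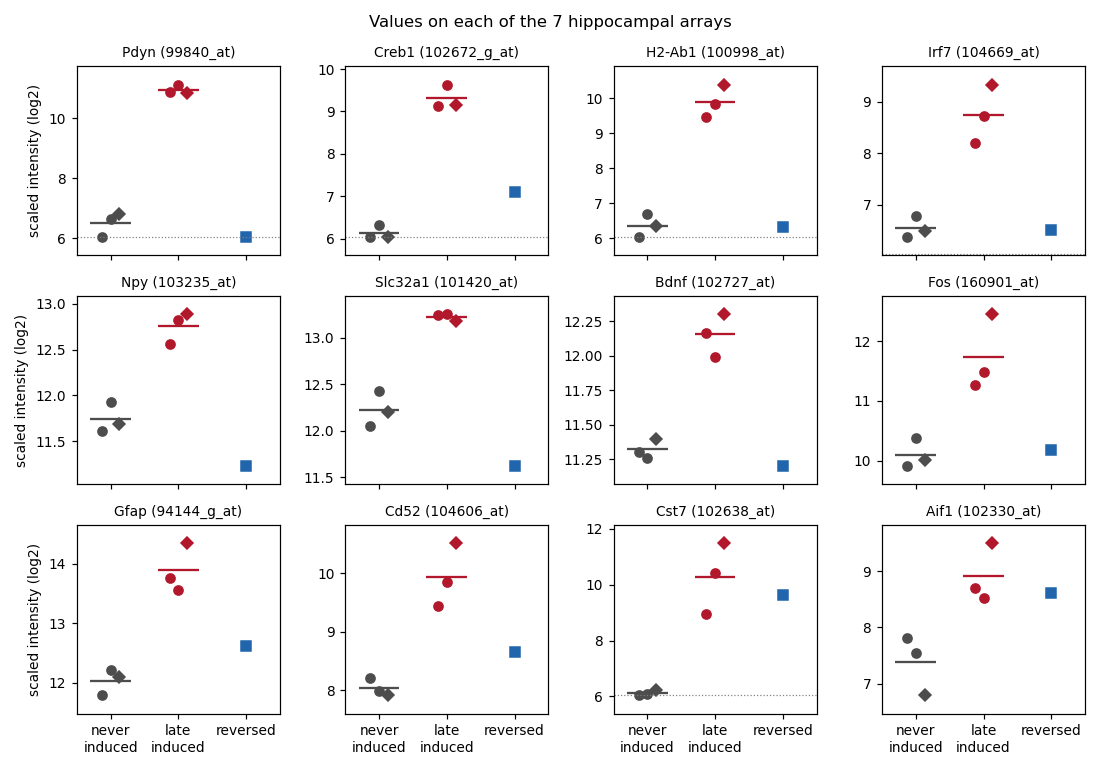
Log2 scaled intensity of 12 probe sets on each array, with never-induced arrays in grey (circles wild type, diamond VC on dox), late arrays in red (circles 2 weeks, diamond 5 weeks), the reversed array as a blue square, group means as bars and the floor of 6.04 dotted; vertical axes differ and do not start at 0. Pdyn, H2-Ab1, Irf7, Npy, Slc32a1, Bdnf and Fos lie at or below the highest never-induced array after reversal, Creb1, Gfap and Cd52 lie between the groups, and Cst7 (9.64) and Aif1 (8.62) lie above their lowest late array.

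The share left is given here by gene list for the late-high probe sets. The median share left was -0.10 for 3 neuropeptide probe sets, 2 of them of Pdyn, 0.00 for 2 immediate early gene probe sets, 0.07 for 2 of class II and 0.11 for 4 of the interferon response. It was 0.24 for 2 of complement, 0.27 for 3 of the CREB and ATF family, 2 of them of Creb1, and 0.29 for 8 of class I. For 10 of microglia it was 0.50, and for 3 of astrocytes, 2 of them of Gfap, 0.58. Over all 62 it was 0.26. These sets are small, share genes in part, and the differences between them were not tested. Measured against the 2-week arrays alone the median share over all 62 was 0.325, and against the 5-week array alone 0.186.

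**Figure D4:**
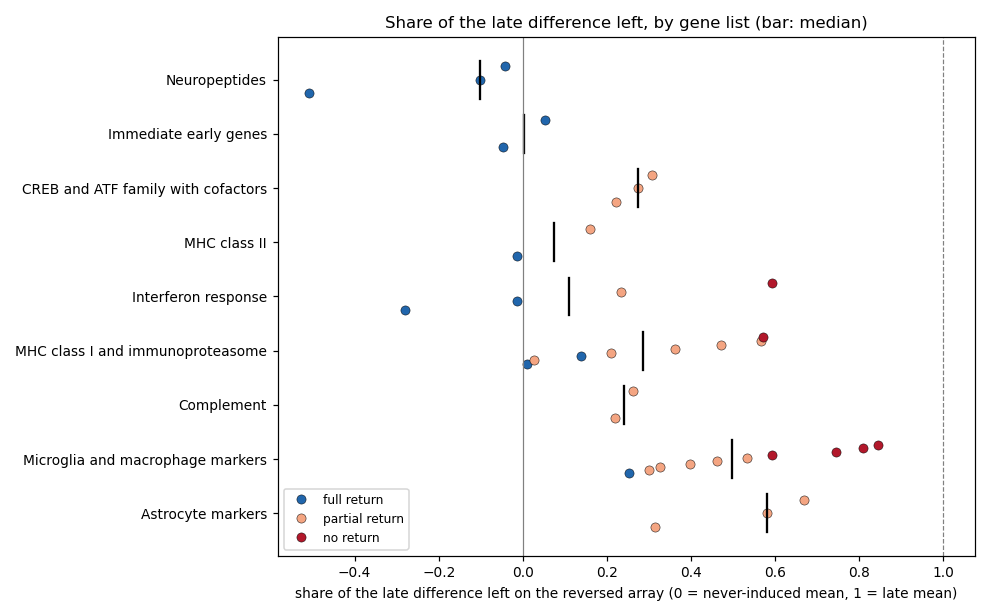
Share of the late difference left on the reversed array for late-high probe sets of 9 gene lists, where 0 is the never-induced mean and 1 the late mean; points are probe sets coloured by return class and bars are medians. Neuropeptide and immediate early gene points lie near or below 0, while microglia points run from 0.252 to 0.844.

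A further set of probe sets read lower on the reversed array than on each of the 6 others used here; the 1-week arrays were not part of this comparison, and Nupr1 read 6.04 on one of them. Yif1a, a protein of traffic between endoplasmic reticulum and Golgi, read 9.81 and 9.67 in wild type, 9.79 in VC on dox, 9.83 and 10.20 at 2 weeks, 9.75 at 5 weeks and 7.52 reversed. The 6 other arrays lay close together, over 2 log2 units above the reversed one. It fell against late (-2.40 ± 0.21 SE, adjusted p = 0.0115, limma) and against never induced (-2.23, adjusted p = 0.0397), and the first call held on leaving out each other array in turn.

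Rnh1, the ribonuclease inhibitor, read 8.14 and 9.01 in wild type, 9.06 in VC on dox, 10.61 and 10.63 at 2 weeks, 10.23 at 5 weeks and 6.66 reversed. It had risen late and lay below every never-induced array after reversal (-3.83 ± 0.36 SE from late, adjusted p = 0.0122). Its other probe set, 161983_f_at, disagreed: it read 7.23 to 8.48 never induced, 8.57 to 8.94 late and 8.69 reversed, with no called difference. That call was lost without either 2-week array (highest adjusted p = 0.0585). Nupr1, a stress-induced nuclear protein, read 8.28 to 8.46, 8.41 to 9.04 and 6.72, and Os9, a lectin of endoplasmic reticulum quality control, 9.05 to 9.75, 9.68 to 9.89 and 7.71. Clip3, a cytoplasmic linker protein, read 7.99 to 8.60, 8.67 to 9.07 and 6.93, and Psapl1, a prosaposin-like gene read by a shared-sequence probe set, 8.82 to 9.32, 8.75 to 9.29 and 6.86. The adjusted p for these 4 against late was 0.0315 to 0.0442, and each call was lost on leaving out 4 or 5 of the 6 other arrays in turn. Prp2, a proline-rich protein gene on 93651_r_at, read 9.22 to 9.71, 10.53 to 10.84 and 8.48 (-2.23, adjusted p = 0.0146), a call lost without either 2-week array.

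In all, 17 probe sets lay more than 1 log2 unit below each of the 6 other arrays on the reversed one, and 0 lay as far above. The same count for each of the 6 other arrays ran from 3 to 27 lower and 0 to 20 higher. Of the 17, 6 were called against late, those of Yif1a, Rnh1, Nupr1, Psapl1, Os9 and Clip3. The others, which include Grb7 (8.54 reversed, 9.63 to 10.11 elsewhere), Lsm2 (7.23, 8.31 to 9.23), Trip6 (6.75, 8.05 to 8.91) and Hmces (7.11, 8.65 to 9.57), did not pass.

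No list of neuronal genes held a called rise after reversal, though some medians lay above late. The 7 CA1 pyramidal cell marker genes had a median of 0.48 for reversed minus late and 0.28 for reversed minus never. Of these 7, 0 lay below the late mean, against 2435 of all 5179 genes tested, and 4 lay above all late arrays, against 30.5% of all tested. Their mean level was 10.67 reversed, 10.37 to 10.74 never induced and 10.20 to 10.38 late. The 7 glutamate receptor genes had a median of 0.39 from late. Gria2, an AMPA receptor subunit, read means of 13.90 never induced and 13.57 late and 13.84 reversed on 92947_s_at (adjusted p = 0.760). Grik2, a kainate receptor subunit, read 8.49, 7.84 and 9.20 (adjusted p = 0.225). The 10 dentate granule cell markers had a median of -0.08 and held Pdyn as the only fall, against 0.195% of all tested probe sets.

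Choroid plexus markers read low on the reversed array, and none passed the test. All 8 choroid plexus genes tested read below the late mean on the reversed array, as did 2435 of all 5179 genes tested. Of the 8, 3 lay below all late arrays, against 24.4% of all tested probe sets. The list had a median of -0.63 from late and -0.33 from never induced. Ttr, the thyroxine carrier and main choroid plexus transcript, read 11.35 and 11.49 in wild type, 10.16 in VC on dox, 8.64 and 12.15 at 2 weeks, 12.58 at 5 weeks and 9.21 reversed. It thus varied as much within groups as between them, and the part of choroid plexus in the results above was not tested. The 7 marker genes of neighbouring brain regions had a median of -0.04 from late and a mean level of 10.31 reversed, inside the 10.19 to 10.39 of the late arrays. The 7 blood marker genes had a median of 0.21 from late, the 14 myelin genes -0.17 and the 17 endothelial genes 0.01.

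Promoters of genes from each return class are shown to set letters beside behaviour. RefSeq promoters of GRCm38.p6 were searched over the 250 bases before each listed start, on both strands, for TGACGTCA (the full CRE), TGACG (its core part, which the full CRE contains) and the core of the interferon-stimulated response element (ISRE), which is GAAA, any 2 bases and GAAA again. Of 27025 genes, 1.77% held the full CRE, 19.8% TGACG and 3.46% the ISRE core. Among late-high genes with full return, 16 of 19 were matched, and 5 held TGACG and 1 the ISRE core. Of partial-return genes 18 of 24 were matched, 7 with TGACG and 1 with the ISRE core. All 6 no-return genes were matched, 1 with TGACG and 2 with the ISRE core. None of these held the full CRE. Of the 12 named genes lower than late, 11 were matched and 3 (Os9, Rnh1 and Yif1a) held TGACG. The counts are small, some genes have several starts, and H2-Ab1 had no entry. H2-D1 and H2-K1 have probe sets in both the full and the partial class, so their TGACG matches count in each.

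The stretches printed are the 200 bases before the start, 5′ to 3′ on the gene's strand, with matches in capitals. Fos (chr12:85473690-85473889, plus strand) returned fully and holds TGACG at 129 and 66 bases before its start. Irf7 (chr7:141266425-141266624, minus strand) also returned fully and holds it at 91 bases. Isg15 (chr4:156200819-156201018, minus strand), with full return, holds 3 overlapping ISRE cores between 78 and 66 bases. Atf3 (chr1:191183334-191183533, minus strand) returned partially and holds CGTCA, the reverse complement of TGACG, at 7 bases. B2m (chr2:122147487-122147686, plus strand) counted as no return by the class rule, with a share left of 0.572. It holds the ISRE core at 139 and TGACG at 78 bases. Cst7 (chr2:150570215-150570414, plus strand) also counted as no return and holds none of the 3 motifs. A match describes letters only.
Fos: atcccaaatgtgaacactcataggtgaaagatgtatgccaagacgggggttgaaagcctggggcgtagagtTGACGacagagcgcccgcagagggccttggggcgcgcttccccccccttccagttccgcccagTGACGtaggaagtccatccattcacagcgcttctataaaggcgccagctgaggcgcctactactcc
Irf7: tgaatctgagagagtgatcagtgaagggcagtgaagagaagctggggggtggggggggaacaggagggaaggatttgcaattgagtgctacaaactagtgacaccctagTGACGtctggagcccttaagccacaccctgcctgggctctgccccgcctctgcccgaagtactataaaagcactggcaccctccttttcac
Isg15: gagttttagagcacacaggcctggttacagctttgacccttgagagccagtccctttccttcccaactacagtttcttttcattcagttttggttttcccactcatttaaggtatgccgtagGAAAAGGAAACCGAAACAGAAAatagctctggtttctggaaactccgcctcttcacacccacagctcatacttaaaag
Atf3: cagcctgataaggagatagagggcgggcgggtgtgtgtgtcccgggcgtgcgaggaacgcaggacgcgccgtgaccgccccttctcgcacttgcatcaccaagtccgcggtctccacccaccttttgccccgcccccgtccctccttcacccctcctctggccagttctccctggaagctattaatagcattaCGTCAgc
B2m: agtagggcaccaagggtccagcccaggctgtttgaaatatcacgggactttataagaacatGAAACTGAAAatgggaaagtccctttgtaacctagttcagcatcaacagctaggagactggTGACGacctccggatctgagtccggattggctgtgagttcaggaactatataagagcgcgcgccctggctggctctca
Cst7: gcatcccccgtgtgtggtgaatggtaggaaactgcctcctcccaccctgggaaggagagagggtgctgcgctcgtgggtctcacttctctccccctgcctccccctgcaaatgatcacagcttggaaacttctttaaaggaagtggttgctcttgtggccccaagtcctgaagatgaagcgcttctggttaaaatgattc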

How the data were processed

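The authors deposited linear intensity, with 1 value per probe set and array. GCOS, software from Affymetrix, is named in the submitters' processing notes; no source used here gives its version, expression algorithm or scaling. The authors' values had been scaled per array: the 2% trimmed mean was 500.3 on wild type 1 and 3002 on the other 6 arrays used. Here all arrays were brought to 1 trimmed mean (1000), values under the 20th percentile (65.7) were set to it, and log2 was taken. Affymetrix controls (66 of 12488 probe sets) were left out. Symbols came from the platform annotation: 10833 probe sets had 1 symbol, 396 several and 1193 none, and only single symbols were used as names.

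In R 4.3.3, limma 3.58.1 was fitted to 7 arrays with 3 levels, never induced, late and reversed. Tests were two-sided, with Benjamini-Hochberg over the 6655 tested probe sets and a threshold of adjusted p = 0.05. The fit was also run on simulated data in which all arrays had the same spread. That run could not test if the reversed array varies like the others. A fold over a group with an array at the floor is a lower bound. Arrays, not depth, limit the precision. List medians use the brightest probe set per gene.

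Genes were named as up to 12 largest called falls and rises against late, the 10 smallest p against never induced, up to 10 single-symbol probe sets per return class, a fixed set of genes, and list members where a count was 5 or fewer; other list members, the probe sets lowest on the reversed array and those under the filter were named after their values were seen. The comparison, its members and the lists were chosen with earlier results of these data known. Wild type and 2-week arrays share the numbers 1 and 2, but their deviations did not go together (correlation 0.0155), so the numbers were not used as pairs. Other scalings, floors, filters, array sets and left-out arrays were tried.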

Additional observations from a re-analysis of the deposited data

How the results depend on the processing

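The count of 13 probe sets lower after reversal than late depended on several choices, and the value for Pdyn did not leave its side of the threshold under any setting that gave one. The count was 1 on the values as deposited, 8 with a filter on the mean, 4 with 9 hippocampal arrays, 4 with all 12, and 128 with no filter (114 of them higher), where probe sets at the floor on most arrays enter the fit. Late against never induced gave 3 on the deposited values, 14 with a filter of at least 1 array, 7 with no filter, 54 with 2 and 5 weeks as separate levels and 5 with the deposited scale as a block, in place of 25. Reversed against never induced gave 0 on the deposited values, 0 with an offset of 64 in place of the floor, 0 with a filter of at least 1 array, 115 with no filter (110 higher), 0 with separate weeks and 3 with the scale block, in place of 1. Leaving out 1 array at a time gave 2 to 11, 4 to 18 and 0 to 3 for the 3 counts. The median share left was 0.175 with array medians, which move the median of all reversed minus late differences from 0.03 to -0.09, and 0.814 on the deposited values; leaving out arrays gave 0.232 to 0.311. The percentage without return was 41.7 on the deposited values, 1.72 against the 5-week array alone and 5.19 to 25.7 on leaving out arrays. On the deposited values wild type 1 sits on another scale, and elsewhere the cause was not tested. With the replicate block the counts were 1, 13 and 0; the shared numbers did not pair the samples. None of the called differences that were recomputed changed sign; other named values were not recomputed. The 1 reversed array and its unknown expression algorithm limit every value.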

Other observations

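Probe sets chosen on the 3 CA1 arrays, which the comparison did not use, gave another reading of the reversed hippocampus. Of the tested probe sets, 159 were at least 1 log2 unit higher on both CA1 arrays of VC mice 3 weeks off dox than on the wild-type CA1 array. On the hippocampal arrays these had a median of 0.44 for late minus never induced, 0.22 for reversed minus never and -0.22 for reversed minus late. On the reversed array 40.9% lay below all late arrays, against 24.4% of all tested, and 49.1% above all never-induced arrays, against 31.0%. The 27 chosen in the opposite direction had medians of -0.09, 0.16 and 0.23. These are descriptions with no test.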
